A study of Mus musculus with 3 samples.

Results

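The comparison set GFP high cells against GFP low cells, 2 of the 3 mouse cell populations that were sorted on green fluorescent protein (GFP). Of 16593 genes with a probe on the Illumina bead array, 8427 were compared, namely those detected (detection p-value under 0.01) on at least 1 of the 2 arrays. Of the compared genes, 7699 were detected on both arrays, 350 only in GFP high cells and 378 only in GFP low cells.

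All populations came from Hb9-GFP mouse embryonic stem cells, whose GFP reports activity of Hb9, the motor neuron factor encoded by Mnx1. The stem cells had been kept on feeder cells with serum. They were then turned toward motor neurons as embryoid bodies exposed to retinoic acid, which patterns the caudal neural tube, and purmorphamine, an agonist of the Hedgehog pathway. The GFP high (labelled motor neurons), GFP low and GFP negative populations thus shared the reporter line and both agents, and the labels separate them by GFP level. The sources used here do not say whether the populations came from the same sort, how many cells each held or where the gates lay. Each population had 1 array, so there was no replicate and no test, and every difference below is a size measured between 2 RNA samples. In such bulk samples, fewer cells of a type and less RNA per cell cannot be told apart.

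In the ventral spinal cord, progenitors along the dorsoventral axis give rise to motor neurons and to the V0, V1, V2 and V3 interneuron classes, each under its own set of transcription factors. Newly born motor neurons switch on Mnx1, Isl1 and the cholinergic genes. The neighbouring V2 lineage passes through a Foxn4-positive stage, and its V2b branch uses Gata2, Gata3 and Tal1. Progenitors still divide and carry Notch signalling, and leave the cell cycle as they become neurons.

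The 3 arrays were alike in the number of probes that gave a signal. Between 11689 and 11736 probes were detected per array, and the median deposited intensity lay between 105.33 and 109.94 before normalization. After normalization the median log2 difference, GFP high minus GFP low, was 0.03 over the compared genes, with a 5th percentile of -0.91 and a 95th percentile of 0.64. In 2290 genes with at least 2 detected probes, the departures between probes gave an SD of 0.257 for the log2 difference of a single probe. This gauge covers probe choice and not what differs between cultures, sorts or hybridisations.

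A difference was counted where the normalized signals were at least 2-fold apart. By this size 444 of 8427 genes (5.27%) differed, with 93 (1.10%) higher and 351 (4.17%) lower. These shares are the background beside which each count for a gene list below is to be read. Higher and lower, here and below, describe GFP high cells relative to GFP low cells. In the authors' own value table the same size was reached by 300 higher and 597 lower genes, so 33.4% of the differing genes were higher there, against 20.9% with the normalization used here. At the dim end a probe may be undetected on the lower array, and its fold is then a bound, written "at least", against the higher of its own signal and the dimmest detected signal of that array. With such bounds the counts were 79 (0.937%) higher and 308 (3.65%) lower. The lower genes outnumbered the higher ones, yet the widest gaps lay among the higher ones: 5 genes were at least 8-fold higher and 0 were at least 8-fold lower. At 4-fold the counts were 17 higher and 23 lower.

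**Figure D1:**
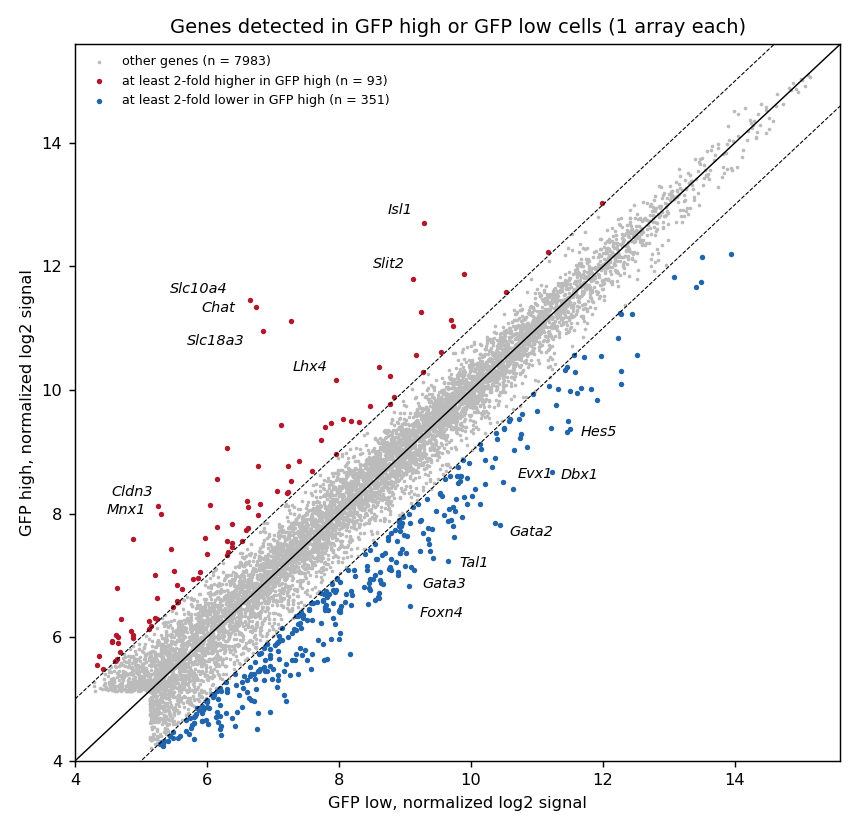
Normalized log2 signal of the 8427 compared genes in GFP low cells (horizontal) and GFP high cells (vertical), 1 point per gene and 1 array per population. Dashed lines mark 2-fold, the 93 higher genes are red and the 351 lower genes are blue. The cholinergic genes Slc10a4, Chat and Slc18a3 lie farthest above the diagonal, and Gata2, Foxn4 and Dbx1 are among those farthest below it.

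The genes taken as markers of the 2 gates differed between them. Slc18a3, the transporter that loads acetylcholine into vesicles, had a deposited intensity of 1976.2 in GFP high cells, 203.82 in GFP low cells and 127.61 in GFP negative cells. Gata2, a V2b factor, had 289.08 in GFP high cells, 1527.8 in GFP low cells and 767.18 in GFP negative cells. Foxn4, which marks V2 progenitors, had 162.56 in GFP high cells, 654.65 in GFP low cells and 906.99 in GFP negative cells. Slc18a3 was thus brightest in GFP high cells and Gata2 in GFP low cells, while Foxn4 was dimmest in GFP high cells and brighter still in GFP negative than in GFP low cells. After normalization Slc18a3 was 17.3-fold higher, Gata2 6.20-fold lower and Foxn4 5.97-fold lower. Mnx1, whose regulatory activity the reporter reads, had intensities of 317.92 in GFP high cells, 121.94 in GFP low cells and 115.0 in GFP negative cells. It was 6.44-fold higher, a fold that rests on a dim signal in GFP low cells. The fitted background mean was 96.06 (SD 6.541) in GFP low cells and 95.4 (SD 5.958) in GFP negative cells. Mnx1 thus marked GFP high cells and hardly separated the other populations.

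Of 13 motor neuron transcription factors listed, 11 were compared, of which 5 were higher by 2-fold or more (4 with bounds) and 0 were lower to that extent, beside 1.10% higher genes over all. Their median log2 difference was 0.05, close to the 0.03 of all compared genes, while their mean was 0.80. The list thus divided into members with large gaps and members with small ones. Isl1, a LIM homeodomain factor that specifies motor neurons, had a normalized log2 signal of 12.70 in GFP high cells, 9.29 in GFP low cells and 7.14 in GFP negative cells, and was 10.6-fold higher. Lhx4, a LIM homeodomain factor with a role shared with Lhx3 in motor neuron specification, gave 10.16 in GFP high cells, 7.95 in GFP low cells and 7.27 in GFP negative cells, and was 4.61-fold higher. Lhx3 itself gave 9.49, 8.30 and 7.50 in GFP high, low and negative cells and was 2.27-fold higher. Each of these factors stepped down from gate to gate. Isl2, the close relative of Isl1, gave 5.69 in GFP high cells and was undetected in the other populations, which leaves at least 1.47-fold.

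The remaining factors of that list lay within 2-fold of each other in GFP high and GFP low cells. Onecut2, a cut homeodomain factor of early motor neurons, gave 10.45 in GFP high cells, 10.44 in GFP low cells and 8.55 in GFP negative cells, so both GFP-positive gates stood above the negative one at nearly the same level. Ebf3 gave 9.82 in GFP high cells, 9.90 in GFP low cells and 8.60 in GFP negative cells, the same shape. Ebf1 was 1.86-fold lower, with 5.85 in GFP high cells and 6.74 in GFP low cells, and Onecut3 was lower by 0.71 on the log2 scale. Ebf2 was 1.34-fold lower by its brightest probe, with a log2 difference of 0.04 from its second. The Ebf genes encode helix-loop-helix factors of differentiating neurons. Nkx6-1, a homeodomain factor of the ventral progenitor domains that is kept in some motor neurons, gave 11.46 in GFP high cells, 11.40 in GFP low cells and 11.80 in GFP negative cells.

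Among 13 compared factors of motor columns and pools, 2 were higher by 2-fold or more and 0 were lower; the list's median log2 difference was 0.21. Nr2f2, an orphan nuclear receptor also called COUP-TFII, gave 8.10 in GFP high cells, 6.62 in GFP low cells and 6.59 in GFP negative cells and was 2.80-fold higher. Pou3f1, a POU domain factor of subsets of motor neurons, gave 10.62, 9.54 and 8.41 in GFP high, low and negative cells and was 2.10-fold higher. Lhx1, which guides limb-innervating motor axons and also marks several interneuron classes, gave 12.69 in GFP high cells, 12.24 in GFP low cells and 10.19 in GFP negative cells. Foxp1, the Hox cofactor of limb-level motor neurons, gave 8.64 in GFP high cells, 8.34 in GFP low cells and 8.12 in GFP negative cells. Both of these differences between GFP high and GFP low cells were under 1.5-fold, while Lhx1 stood well above the negative gate in both. Among the remaining column and pool factors, Pbx3, a Hox cofactor, was 1.43-fold higher, Nr2f1 1.16-fold higher, and Meis1 and Meis2, also Hox cofactors, 1.02-fold and 1.05-fold higher. Zeb2, Etv1 and Mecom were 1.35-fold, 1.21-fold and 1.17-fold lower. Aldh1a2, a retinoic acid synthesis enzyme, was undetected in GFP low cells (at least 1.14-fold higher), and Etv4, an ETS factor of motor pools, was undetected in GFP high cells (at least 1.06-fold lower). Of the cranial motor neuron factors, Phox2a was detected in GFP low cells and not in GFP high cells, at least 1.14-fold lower, and Tbx20 was undetected in both.

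The cholinergic genes gave the widest gaps of the comparison. Of 12 listed, 7 were compared and all 7 were on the higher side, as were 53.5% of all compared genes; 3 reached 2-fold, and the list's median log2 difference was 0.56. Chat, the enzyme that makes acetylcholine, had a deposited intensity of 2556.8 in GFP high cells, 194.23 in GFP low cells and 130.91 in GFP negative cells. On the normalized log2 scale Chat gave 11.35 in GFP high cells, 6.74 in GFP low cells and 5.70 in GFP negative cells, a 24.5-fold difference between GFP high and GFP low cells, and a second Chat probe gave a log2 difference of 3.66. Slc10a4, a vesicular transporter-like protein of cholinergic and monoaminergic neurons, gave 11.46 in GFP high cells, 6.65 in GFP low cells and 5.61 in GFP negative cells and was 28.1-fold higher, with 2.27 on the log2 scale from its second probe. GFP low cells were therefore much closer to GFP negative than to GFP high cells in these genes, although all remained detected there. Slc18a3 lies within the Chat gene on the same strand in the RefSeq annotation, and Slc10a4l, annotated by RefSeq as a transcribed pseudogene on the chromosome of Slc10a4, was 14.4-fold higher with 11.12 in GFP high cells, 7.27 in GFP low cells and 6.21 in GFP negative cells. Whether its probe also binds Slc10a4 transcripts was not tested.

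The nicotinic acetylcholine receptor subunits did not follow that step. Chrnb2 was 1.47-fold higher, with 8.27 in GFP high cells, 7.71 in GFP low cells and 6.13 in GFP negative cells. Chrna3 gave 11.25 in GFP high cells, 11.13 in GFP low cells and 9.76 in GFP negative cells, so it separated the GFP-positive gates from the negative one and not from each other. Chrnb4 and Chrna4 were 1.18-fold and 1.13-fold higher. Slc5a7, the choline transporter, and Ache, the esterase that breaks acetylcholine down, were undetected in both populations, as were Chrm2, Chrm3 and Chrna7. With these 5 undetected genes included, the list's median log2 difference was 0.15.

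Of 18 motor neuron effector genes, 12 were compared, and 3 were higher by 2-fold or more. Slit2, a secreted axon guidance ligand of Robo receptors, gave 11.79 in GFP high cells, 9.12 in GFP low cells and 7.97 in GFP negative cells, 6.37-fold higher. Nrg1, the neuregulin that motor axons supply to Schwann cells and muscle, gave 7.60 in GFP high cells, 5.97 in GFP low cells and 5.38 in GFP negative cells and was 3.10-fold higher. Slit3 had deposited intensities of 229.71 in GFP high cells, 149.08 in GFP low cells and 170.64 in GFP negative cells and was 2.53-fold higher. Unlike Slit2 and Nrg1, Slit3 was dimmer in GFP low than in GFP negative cells. Agrn, which encodes agrin, the organiser of the neuromuscular synapse, was 1.40-fold higher, and Ret, the signalling receptor for the GDNF family, 1.23-fold higher. Ngfr, the low-affinity neurotrophin receptor, gave 11.03 in GFP high cells, 10.36 in GFP low cells and 9.24 in GFP negative cells and was 1.59-fold higher. Of the rest, Cadm1, an adhesion molecule, was 1.66-fold higher, Ntrk3, the neurotrophin-3 receptor, 1.42-fold higher, and Gfra1, the GDNF-binding co-receptor, 1.26-fold higher. Prph, the filament peripherin, was undetected in GFP low cells (at least 1.04-fold higher), and the cytokine receptor genes Cntfr and Lifr were 1.21-fold and 1.08-fold lower.

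**Figure D2:**
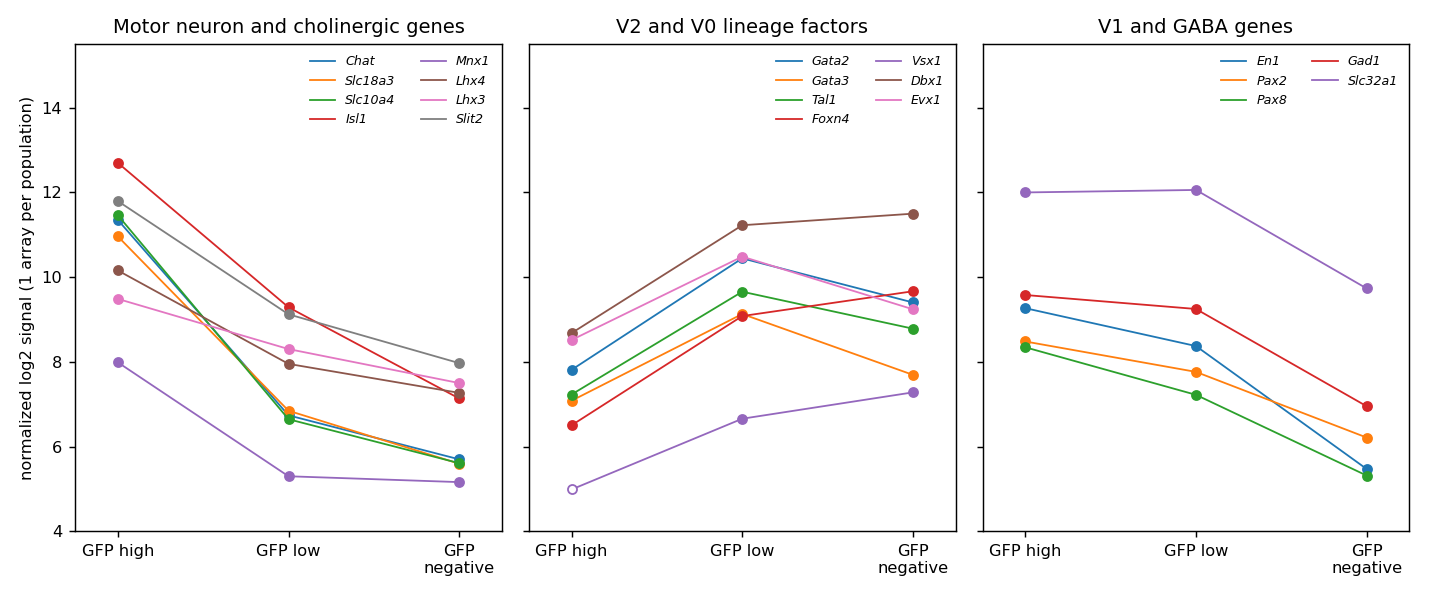
Normalized log2 signal of named genes in GFP high, GFP low and GFP negative cells, 1 array per population, with filled points for detected and open points for undetected probes. The motor neuron and cholinergic genes shown step down from GFP high to GFP low cells, and the V2 and V0 factors shown are dimmest in GFP high cells. The V1 and GABA genes shown lie closer between the GFP-positive gates than between GFP low and GFP negative cells. Some members of these lists that lay within 2-fold, such as Onecut2, Chrna3 and Lmo2, are not drawn. Levels are not comparable between genes, because each has its own probe.

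Most of the V2 lineage factors that had a probe lay the other way, and listed members without a probe could not be read. Of 14 listed, 9 had a probe and were compared, and 7 of the 9 were at least 2-fold lower (6 with bounds) while 0 were that much higher, beside 4.17% lower genes over all. The list's median log2 difference was -1.67, or -1.53 with undetected genes at their bounds. Foxn4, the progenitor factor that opens the V2 programme, gave 6.50 in GFP high cells, 9.08 in GFP low cells and 9.67 in GFP negative cells. Gata2 gave 7.81 in GFP high cells, 10.44 in GFP low cells and 9.40 in GFP negative cells. Its partner Tal1 gave 7.23 in GFP high cells, 9.66 in GFP low cells and 8.78 in GFP negative cells and was 5.37-fold lower. Gata3, the later GATA factor of V2b neurons, was 4.13-fold lower, with 7.08, 9.13 and 7.69 in GFP high, low and negative cells. The GATA factors and Tal1 were thus brightest in GFP low cells, and Foxn4 in GFP negative cells.

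The remaining members of the V2 list included some with only a bound. Vsx1, a homeodomain factor of newborn V2 cells, was undetected in GFP high cells and gave 6.66 in GFP low cells and 7.28 in GFP negative cells, at least 2.89-fold lower. Shox2, used by a set of V2a and other excitatory interneurons, was undetected in GFP high cells and gave 5.83 in GFP low cells, at least 1.63-fold lower. Sox21, an SRY-related factor of neural progenitors, was 2.36-fold lower, with 11.83 in GFP high cells, 13.07 in GFP low cells and 13.15 in GFP negative cells. The LIM-only cofactors differed from the factors they assemble with: Lmo4 was lower by 0.15 on the log2 scale. Lmo2 gave 8.99 in GFP high cells, 8.57 in GFP low cells and 6.77 in GFP negative cells and was 1.34-fold higher.

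The V0 factors and several dorsal factors were also lower. Of 3 compared V0 genes, 2 were at least 2-fold lower. Dbx1, the homeodomain factor of the p0 progenitor domain, had deposited intensities of 458.46 in GFP high cells, 2577.3 in GFP low cells and 2983.8 in GFP negative cells and was 5.84-fold lower. Evx1, which marks postmitotic V0 neurons, had 419.51 in GFP high cells, 1565.4 in GFP low cells and 694.93 in GFP negative cells and was 3.91-fold lower. The progenitor gene was thus similar in GFP low and GFP negative cells, and the postmitotic one brightest in GFP low cells. Prdm8, the remaining V0 gene compared, was 1.36-fold lower. Of 18 dorsal interneuron factors with a probe 6 were compared, and Lbx1, Pax3 and Ptf1a were among those undetected in both populations. All 6 were lower, 3 of them at least 2-fold (2 with bounds), beside 4.17% of all compared genes. Their median log2 difference was -0.88. Msx1, a homeodomain factor of the dorsal neural tube, gave 7.76 in GFP high cells, 9.35 in GFP low cells and 8.02 in GFP negative cells and was 3.01-fold lower. Olig3, a bHLH factor of dorsal progenitors, was detected in GFP low cells alone, a gap of at least 2.12-fold. Tlx3, a selector of dorsal excitatory neurons, was likewise detected in GFP low cells alone, a gap of at least 1.95-fold. Pou4f1, a POU factor of dorsal and sensory neurons, was 1.68-fold lower and Lhx5 1.51-fold lower, while Tfap2b was 1.12-fold lower by its brightest probe, with a log2 difference of 0.11 from its second. Of 3 compared V3 and floor plate factors, Uncx, which marks a part of the V3 lineage among other places, was 3.02-fold lower, and Nkx2-2, the p3 progenitor factor, was undetected in GFP high cells and at least 1.40-fold lower, while Foxa1, a floor plate factor, was detected in GFP high cells alone (at least 1.11-fold higher).

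The V1 list is small, with 4 genes compared, 1 of which reached 2-fold. All 4 were on the higher side, as were 53.5% of all compared genes, and their median log2 difference was 0.81. En1, the homeodomain factor that defines V1 neurons, gave 9.27 in GFP high cells, 8.37 in GFP low cells and 5.47 in GFP negative cells and was 1.86-fold higher. Pax8 was 2.18-fold higher with 0.87 on the log2 scale from its second probe, and Pax2 was 1.64-fold higher. Both are paired-box factors of inhibitory spinal neurons. Gad1, which makes GABA, gave 9.58 in GFP high cells, 9.25 in GFP low cells and 6.95 in GFP negative cells. Slc32a1, the vesicular GABA and glycine transporter, gave 12.00 in GFP high cells, 12.06 in GFP low cells and 9.73 in GFP negative cells. En1, Pax2, Pax8, Gad1 and Slc32a1 thus differed less between the GFP-positive gates than each did between GFP low and GFP negative cells. Sp8, the other V1 gene compared, gave 9.13 in GFP high cells, 9.05 in GFP low cells and 9.22 in GFP negative cells. Slc17a6, the vesicular glutamate transporter VGLUT2, gave 5.19 in GFP high cells, 7.06 in GFP low cells and was undetected in GFP negative cells, and was 3.65-fold lower. Th, the rate-limiting enzyme of catecholamine synthesis, lay opposite, with 8.77 in GFP high cells, 6.76 in GFP low cells and no detection in GFP negative cells, 4.03-fold higher. Gch1, which makes the cofactor that Th needs, was 2.58-fold lower, with 6.55, 7.92 and 8.95 in GFP high, low and negative cells.

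Among 9 compared ventral progenitor factors 4 were on the higher side and 5 on the lower side. Only Foxn4, Dbx1 and Irx3 passed 2-fold, and all 3 were lower. Foxn4 was also counted in the V2 list and Dbx1 in the V0 list. Irx3, a homeodomain repressor that sets the dorsal limit of the motor neuron progenitor domain, gave 9.93 in GFP high cells, 10.94 in GFP low cells and 10.53 in GFP negative cells and was 2.02-fold lower. Olig2, the bHLH factor of that same domain, gave 6.77 in GFP high cells, 6.43 in GFP low cells and 6.27 in GFP negative cells and was 1.26-fold higher. Olig1, its neighbour in the genome and in expression, gave 10.67 in GFP high cells, 9.88 in GFP low cells and 10.08 in GFP negative cells and was 1.73-fold higher. The 2 Olig genes of the motor neuron domain were thus highest in GFP high cells, by less than 2-fold. Of 13 proneural and neurogenic factors 2 passed 2-fold, both of them lower, and the median log2 difference was -0.28. Neurog1, a proneural bHLH factor, was 3.17-fold lower, whereas Neurog2, the proneural factor used by motor neuron progenitors, was lower by 0.28 on the log2 scale. Myt1, a zinc finger factor of neuronal differentiation, was 1.78-fold higher and Sox4, an SRY-related factor of new neurons, 1.82-fold higher.

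Notch targets and progenitor genes lay on the lower side. Of 18 compared Notch pathway genes 4 passed 2-fold, all of them lower, and the list's median log2 difference was -0.17. Hes5, a repressor that Notch activates in progenitors, had intensities of 691.35 in GFP high cells, 3098.6 in GFP low cells and 5830.8 in GFP negative cells and was 4.39-fold lower. Nrarp, a Notch target that feeds back on the pathway, gave 10.02 in GFP high cells, 11.32 in GFP low cells and 12.21 in GFP negative cells and was 2.45-fold lower. Hes1 was 2.49-fold lower, with 6.28, 7.59 and 8.78 in GFP high, low and negative cells. These targets stepped up from GFP high through GFP low to GFP negative cells. The Delta-like ligands did not: Dll1 and Dll3 were higher in GFP high cells than in GFP low cells by 0.34 and 0.61 on the log2 scale, within 2-fold. Jag1, another Notch ligand, was undetected in GFP high cells and at least 2.02-fold lower. The gene Mfng encodes a fringe enzyme that modifies Notch, and was higher by 0.75 on the log2 scale with 1.26 from its second probe.

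Of 14 compared progenitor and radial glia genes 7 were lower and 1 was higher by 2-fold or more; the median log2 difference was -0.75. Slc1a3, the glial glutamate transporter GLAST, gave 7.81 in GFP high cells, 9.72 in GFP low cells and 11.05 in GFP negative cells and was 3.78-fold lower. Ednrb, an endothelin receptor of radial glia and neural crest, gave 10.56 in GFP high cells, 12.51 in GFP low cells and 13.05 in GFP negative cells and was 3.87-fold lower, with -1.91 on the log2 scale from its second probe. Sox2, which holds neural progenitors undifferentiated, was 2.15-fold lower and Sox9, a factor of radial glia, 2.08-fold lower. The exception was Ddah1, an enzyme that clears methylated arginine, with 8.86 in GFP high cells, 7.39 in GFP low cells and 7.95 in GFP negative cells, 2.76-fold higher. Nes, the progenitor intermediate filament nestin, was lower by 0.20 on the log2 scale and its second probe gave 0.23, so its probes differed in sign.

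Cell division genes formed a uniform block among the lower genes. Each of the 23 compared DNA replication genes was dimmer in GFP high cells than in GFP low cells, 13 of them at least 2-fold, with a median log2 difference of -1.14. All 17 compared mitosis genes were lower as well, 15 at least 2-fold, with a median of -1.62. Together with the replication-dependent histones these lists held 42 of the 351 lower genes (12.0%), 0 of the 93 higher genes and 76 of the 8427 compared genes (0.902%). Cdk1, the kinase that drives entry into mitosis, had intensities of 175.54 in GFP high cells, 493.26 in GFP low cells and 664.83 in GFP negative cells and was 3.70-fold lower by its brightest probe. With the mean of the 3 Cdk1 probes, of which the other two were undetected, its log2 difference was -0.69 in place of -1.89. Kif23, a kinesin of cytokinesis, gave 6.54 in GFP high cells, 8.44 in GFP low cells and 8.99 in GFP negative cells and was 3.73-fold lower. Top2a, the topoisomerase of dividing cells, gave 9.95 in GFP high cells, 11.61 in GFP low cells and 12.26 in GFP negative cells and was 3.16-fold lower. Each was dimmest in GFP high cells, and GFP low cells lay nearer to GFP negative than to GFP high cells.

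The replication genes named here had the same order. Tk1, the thymidine kinase of S phase, gave 7.28 in GFP high cells, 9.43 in GFP low cells and 10.34 in GFP negative cells and was 4.43-fold lower, although a second Tk1 probe gave -0.35 on the log2 scale and the mean of the probes -0.87. Cdc6, which loads the replicative helicase, gave 7.40 in GFP high cells, 9.38 in GFP low cells and 9.98 in GFP negative cells and was 3.94-fold lower, with -0.93 from its second probe and -0.77 from the mean of the probes. Mcm10, which helps start replication forks, was 3.80-fold lower, with -1.94 on the log2 scale from its second probe, and Cdc45, a part of the active helicase, was 3.12-fold lower, with -0.77 from the mean of its probes. The smallest gap among these genes was that of Rfc4, a clamp loader subunit, at 1.20-fold. Of 15 cyclin D and cell cycle exit genes 5 passed 2-fold, all of them lower. Ccnd1, cyclin D1, gave 11.67 in GFP high cells, 13.41 in GFP low cells and 13.53 in GFP negative cells and was 3.33-fold lower, while Cdkn1a, the inhibitor p21, was 1.34-fold higher. Of 36 compared replication-dependent histone genes 14 passed 2-fold, again all lower, and the widest gap, that of H2ac11, was 4.70-fold. Those probes are uncertain as to gene, since clustered histone genes are near-identical copies.

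Promoter sequences from RefSeq (build GRCm38.p6, 300 bases each, mostly upstream of the start, with an end that lies inside the transcript) were set beside these blocks, because cell cycle promoters are known to carry recurrent elements. The CCAAT box is bound by NF-Y, the CHR element TTTGAA by the MuvB complexes that switch mitotic genes, and E2F elements by the E2F factors of S phase. Each motif was searched on both strands with those letters, and E2F as TTTCCCGC or TTTGGCGC, and matches of different motifs were allowed to overlap. A match is a description of letters and not a bound site. For 6874 of the 8427 compared genes a promoter was listed, and the first listed start was used for each. The following windows are shown 5′ to 3′ on the strand of the gene. In the windows of Cdk1, Kif23 and Plk1, the kinase of mitotic entry and spindle poles (2.56-fold lower), capitals mark CCAAT and CHR matches.
Cdk1 (chr10:69352863-69353162, minus strand): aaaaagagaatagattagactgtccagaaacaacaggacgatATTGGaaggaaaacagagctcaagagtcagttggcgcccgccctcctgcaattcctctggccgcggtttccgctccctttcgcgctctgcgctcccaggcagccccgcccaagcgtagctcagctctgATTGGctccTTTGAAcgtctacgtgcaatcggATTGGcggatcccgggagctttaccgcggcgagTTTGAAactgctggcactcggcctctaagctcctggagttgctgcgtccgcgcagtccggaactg
Kif23 (chr9:61946750-61947049, minus strand): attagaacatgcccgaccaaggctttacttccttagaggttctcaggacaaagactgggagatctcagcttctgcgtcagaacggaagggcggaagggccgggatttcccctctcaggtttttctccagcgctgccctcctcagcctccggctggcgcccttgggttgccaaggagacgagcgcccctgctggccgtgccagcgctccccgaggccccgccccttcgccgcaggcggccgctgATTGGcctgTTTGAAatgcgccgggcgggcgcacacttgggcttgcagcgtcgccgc
Plk1 (chr7:122159185-122159484, plus strand): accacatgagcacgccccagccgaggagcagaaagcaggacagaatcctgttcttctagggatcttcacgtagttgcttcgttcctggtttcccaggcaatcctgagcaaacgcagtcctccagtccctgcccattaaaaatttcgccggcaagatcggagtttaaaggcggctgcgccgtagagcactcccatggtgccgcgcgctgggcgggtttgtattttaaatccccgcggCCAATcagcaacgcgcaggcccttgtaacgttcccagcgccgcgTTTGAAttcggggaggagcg
Capitals mark E2F matches in the windows of Cdc6 and of Mcm3, a subunit of the replicative helicase that was 2.99-fold lower.
Cdc6 (chr11:98907901-98908200, plus strand): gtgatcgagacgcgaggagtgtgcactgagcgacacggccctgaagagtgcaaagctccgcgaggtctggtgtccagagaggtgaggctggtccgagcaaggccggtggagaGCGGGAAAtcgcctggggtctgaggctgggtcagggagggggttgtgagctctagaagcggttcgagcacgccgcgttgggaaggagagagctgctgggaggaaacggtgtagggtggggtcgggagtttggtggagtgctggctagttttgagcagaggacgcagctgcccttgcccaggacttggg
Mcm3 (chr1:20820263-20820562, minus strand): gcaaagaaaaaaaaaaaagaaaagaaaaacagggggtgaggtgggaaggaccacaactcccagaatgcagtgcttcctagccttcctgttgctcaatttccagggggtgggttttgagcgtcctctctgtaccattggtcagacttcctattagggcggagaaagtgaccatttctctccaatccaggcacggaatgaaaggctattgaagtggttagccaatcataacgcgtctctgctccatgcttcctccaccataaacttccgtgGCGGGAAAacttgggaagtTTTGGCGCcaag
Slc18a3 and Isl1 are shown from the higher side, with capitals for the E-box CANNTG, the core bound by bHLH factors. The Cdk1, Kif23, Plk1 and Cdc6 windows above each hold 1 E-box match as well, left in lower case. So are the 3 CCAAT matches of the Mcm3 window. The Slc18a3 and Isl1 windows hold no CHR or E2F match, and the Isl1 window also holds 2 CCAAT matches, left in lower case.
Slc18a3 (chr14:32464801-32465100, minus strand): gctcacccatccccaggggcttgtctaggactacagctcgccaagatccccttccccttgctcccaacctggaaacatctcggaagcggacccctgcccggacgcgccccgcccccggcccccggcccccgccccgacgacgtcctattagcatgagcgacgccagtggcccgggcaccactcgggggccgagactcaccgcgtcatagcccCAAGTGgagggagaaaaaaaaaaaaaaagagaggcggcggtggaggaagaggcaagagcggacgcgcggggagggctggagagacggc
Isl1 (chr13:116309639-116309938, minus strand): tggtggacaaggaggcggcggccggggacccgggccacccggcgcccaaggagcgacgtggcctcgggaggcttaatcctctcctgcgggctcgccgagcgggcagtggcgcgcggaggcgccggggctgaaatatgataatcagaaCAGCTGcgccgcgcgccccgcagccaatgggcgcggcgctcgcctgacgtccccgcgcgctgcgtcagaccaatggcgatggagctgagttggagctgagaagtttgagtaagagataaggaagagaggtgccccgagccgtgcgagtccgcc

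Among 21 mitosis genes with a listed promoter, 18 (85.7%) held a CCAAT match and 17 (81.0%) a CHR match, beside 39.8% and 11.3% of the promoters of compared genes. Of the 15 compared mitosis genes with a promoter 12 held both, and of the 14 that were at least 2-fold lower 11 did. These counts describe the list and do not set its lower members apart. The share with both over all compared genes was not counted. Replication genes had another make-up: 7 of 23 (30.4%) held an E2F match, beside 3.05% of compared genes, and 13.0% held a CHR match. Over all lower genes, CCAAT was found in 49.8%, CHR in 21.2% and E2F in 7.69% of 273 promoters. Over the higher genes, CCAAT was found in 31.7%, CHR in 11.1% and E2F in 0 of 63 promoters. Among all 32851 promoters of the table the shares were 37.4%, 17.9% and 1.56%. The E-box was found in 61.9% of promoters of higher genes and in 62.1% of those of compared genes, and the homeodomain core TAATTA in 1.59% and 2.34%, so neither set the higher genes apart.

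**Figure D3:**
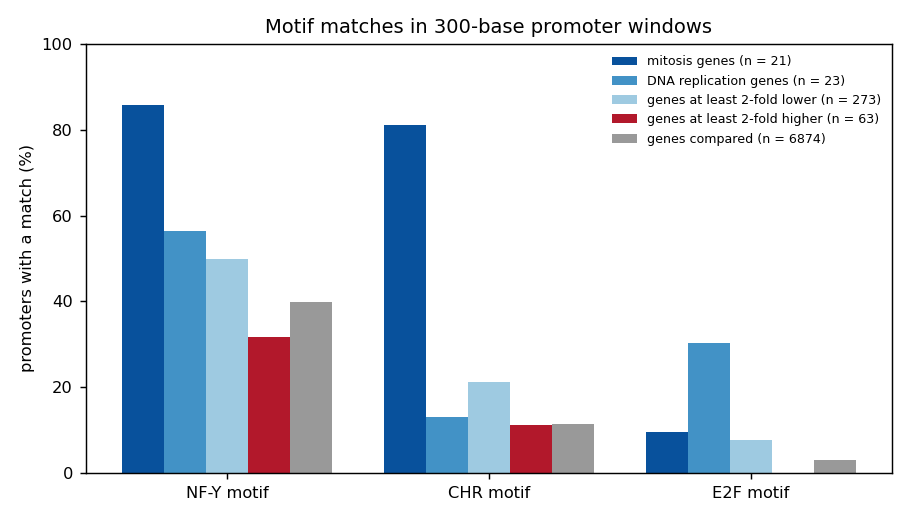
Share of 300-base promoter windows with at least 1 match to the NF-Y motif (CCAAT box), the CHR motif and the E2F motif, by gene set, with the number of promoters in the key. Mitosis genes stand out for the NF-Y and CHR motifs (85.7% and 81.0%) and replication genes for the E2F motif (30.4%), beside all compared genes (39.8%, 11.3% and 3.05%).

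Of 24 compared pan-neuronal genes 3 were higher by 2-fold or more and 0 were lower to that extent. On the higher side of 0 lay 20 of the 24, beside 53.5% of all compared genes, and their median log2 difference was 0.47. Gap43, a growth cone protein, gave 11.13 in GFP high cells, 9.70 in GFP low cells and 8.88 in GFP negative cells and was 2.69-fold higher. Nefm, the middle neurofilament subunit, gave 12.23 in GFP high cells, 11.17 in GFP low cells and 8.91 in GFP negative cells and was 2.08-fold higher. Elavl2, a neuronal RNA-binding protein, was 2.07-fold higher, whereas its relative Elavl3 was 1.01-fold higher. Stmn2, a microtubule regulator of growing axons, was 1.47-fold higher, with 12.28, 11.73 and 9.59 in GFP high, low and negative cells. For Nefm and Stmn2 the gap between GFP high and GFP low cells was smaller than the one between GFP low and GFP negative cells, and for Gap43 and Elavl2 it was larger. Of 17 synaptic vesicle and release genes 0 reached 2-fold either way, and their median was 0.23.

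Some surface and signalling genes gave larger differences. Cacna2d1, an auxiliary calcium channel subunit, gave 9.43 in GFP high cells, 7.12 in GFP low cells and 6.48 in GFP negative cells and was 4.95-fold higher. Cacna1g, a T-type calcium channel, gave 8.14 in GFP high cells, 6.05 in GFP low cells and 5.68 in GFP negative cells and was 4.26-fold higher, with 0.62 on the log2 scale from its second probe. These were the 2 of 11 compared voltage-gated channel subunits that reached 2-fold. Nrp1, a semaphorin receptor, had intensities of 729.27 in GFP high cells, 332.28 in GFP low cells and 332.71 in GFP negative cells and was 2.98-fold higher. Glra2, a glycine receptor subunit of the embryo, was 2.45-fold higher and undetected in GFP negative cells. Against them, Ephb1, an ephrin receptor, was 2.21-fold lower, Plxna2, a semaphorin co-receptor, 2.11-fold lower, and Fgfr3, an FGF receptor of progenitors, 3.13-fold lower.

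Outside the lists, the genes with the largest differences fell on both sides. Rasgef1c, a guanine nucleotide exchange factor, gave 9.07 in GFP high cells, 6.31 in GFP low cells and 5.11 in GFP negative cells and was 6.77-fold higher, with 1.92 on the log2 scale from its second probe. Ecel1, an endopeptidase-like membrane protein that motor axons need to branch in muscle, gave 8.56 in GFP high cells, 6.14 in GFP low cells and was undetected in GFP negative cells, 5.32-fold higher. Uts2b, a peptide related to urotensin, had an intensity of 257.9 in GFP high cells, 110.44 in GFP low cells and 90.058 in GFP negative cells and was detected in GFP high cells alone, at least 5.50-fold higher. Gng2, a G protein subunit, was 4.07-fold higher and Angpt1, a ligand of the Tie2 receptor, 3.94-fold higher. Gdnf, the trophic factor whose receptor complex includes Ret, was detected in GFP high cells alone, at least 1.83-fold higher. On the lower side Gstk1, a glutathione transferase, gave 7.84 in GFP high cells, 10.37 in GFP low cells and 10.42 in GFP negative cells and was 5.76-fold lower. Wnt7a, a ligand made by spinal progenitors, was 4.37-fold lower, Gja1, the gap junction protein connexin 43, 3.96-fold lower, and Clspn, a replication checkpoint protein, 4.70-fold lower. Yap1, the Hippo pathway co-activator, was undetected in GFP high cells and gave 6.75 in GFP low cells and 8.38 in GFP negative cells, at least 3.09-fold lower. Nrn1, a surface protein that promotes neurite growth, was undetected in GFP high cells and at least 4.13-fold lower.

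The threshold itself was crossed by small margins. The 3 higher genes just inside it were Zswim5, Hps4 and Scml4, at 2.01-fold each, and Synm, Smg8 and Piwil1 lay just under it. Among lower genes, Pbxip1 and Vat1l lay just inside it and Kdelr3, Foxb1 and Fen1 just outside. Kif24 also lay just inside by its measured signals, but was undetected in GFP high cells, which leaves at least 1.66-fold. Where a higher gene had a second detected probe, 25 of 26 second probes were also higher and 11 reached 2-fold. For lower genes 80 of 83 second probes were also lower and 50 reached 2-fold, and 0 second probes on either side lay at least 2-fold in the opposite direction. With the mean of all probes of a gene, detected or not, several more of the genes described dropped under 2-fold: the log2 difference was 0.60 for Nr2f2, 0.99 for Angpt1, 0.68 for Gdnf, 0.88 for Elavl2, 0.55 for Mbp, -0.92 for Fgfr3, -0.91 for Sox2, -0.86 for Vsx1 and -0.79 for Shox2. Pax8 lay just under 2-fold.

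**Figure D4:**
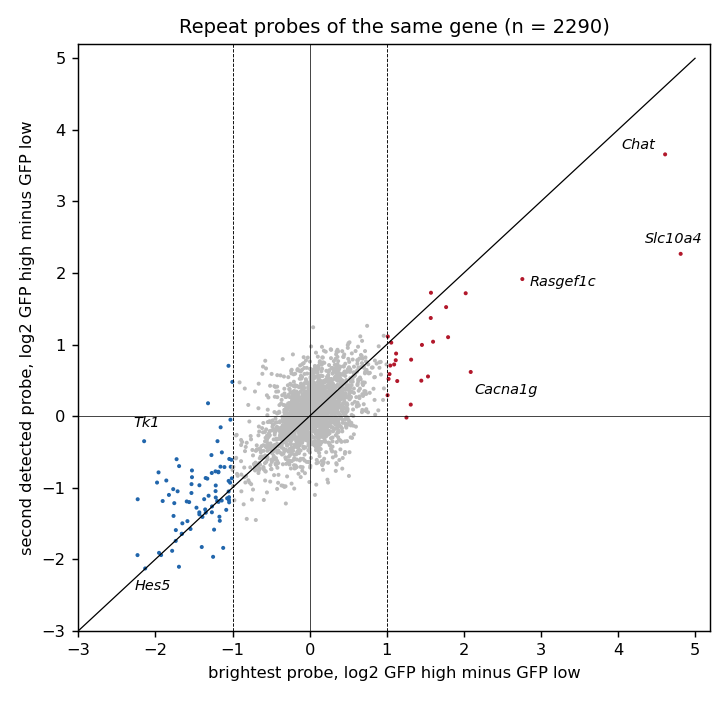
Log2 difference, GFP high minus GFP low, from the brightest probe (horizontal) and a second detected probe (vertical) of the same gene, for 2290 genes. Second probes of genes at least 2-fold apart mostly lie on the same side of 0, often closer to it.

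**Figure D5:**
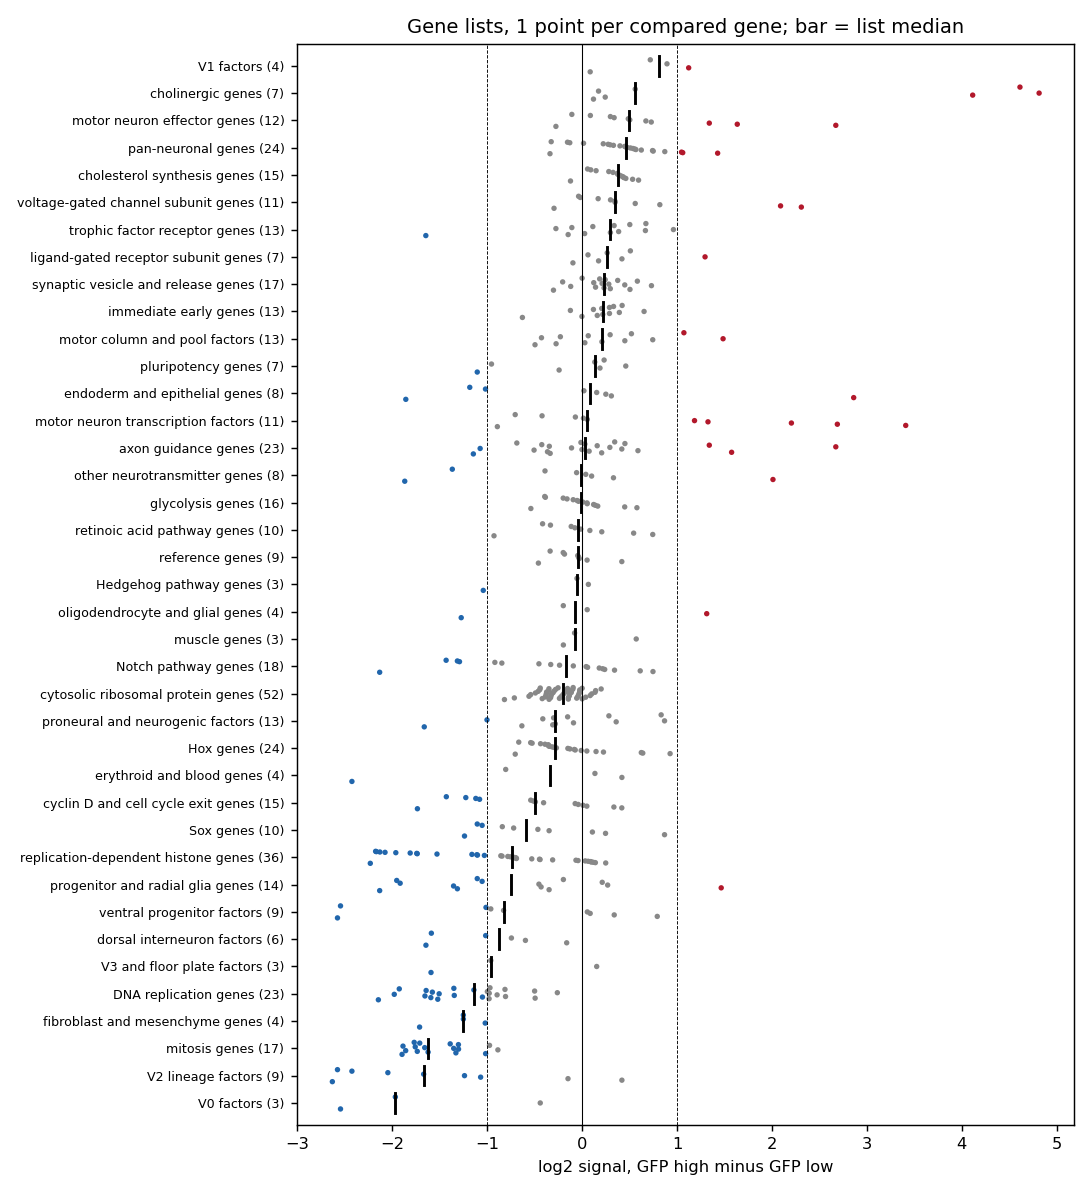
Log2 difference, GFP high minus GFP low, of each compared gene in lists with at least 3 compared genes, 1 point per gene, ordered by the list median (bar). Dashed lines mark 2-fold. The medians of the mitosis, replication, V2 and V0 lists lie to the left of 0, with cholinergic and motor neuron genes reaching farthest to the right.

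Some lists held 0 genes at least 2-fold apart beside 5.27% of all compared genes, and for the shorter ones a count of 0 is near that background. These were Hox genes (24 compared), retinoic acid pathway genes (10), glycolysis genes (16), immediate early genes (13) and cytosolic ribosomal protein genes (52). Synaptic vesicle and release genes (17), cholesterol synthesis genes (15) and reference genes (9) belonged with them. So did the short muscle, endothelial, neural crest and cranial motor neuron lists. Single members still lay up to 0.93 from 0 on the log2 scale, as did Hoxc11, which was undetected in GFP low cells. The Hox list had a median log2 difference of -0.28 with 18 of 24 genes lower, and the ribosomal list a median of -0.20 with 44 of 52 lower. Over all compared genes 53.5% were on the higher side. The 15 cholesterol synthesis genes had a median of 0.37 with 14 on the higher side, beside 53.5% of all compared genes. The 9 reference genes had a median of -0.05. Of 3 compared Hedgehog pathway genes, Ptch1, the receptor and target of the pathway, and Smo, its transducer, differed by 0.07 and -0.05 on the log2 scale. Hhip, a Hedgehog-binding target, was undetected in GFP high cells and its gap was at least 1.98-fold.

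Markers of other cell types were read beside these results, as signal summed on the linear normalized scale over the genes of a list that were detected on at least 1 array. Fibroblast and mesenchyme genes summed to 553.9 in GFP high cells, 1217 in GFP low cells and 3588 in GFP negative cells, and all 4 compared of 20 listed were at least 2-fold lower, with Sparc, a matrix glycoprotein, 3.28-fold lower. Of 19 such genes with a probe, 4 were detected in GFP high cells, 4 in GFP low cells and 6 in GFP negative cells, and the defining collagens Col1a1, Col1a2 and Col3a1 were undetected in both. Endoderm and epithelial genes summed to 660.8 in GFP high cells, 557.1 in GFP low cells and 3462 in GFP negative cells, with 6, 6 and 11 of 20 detected. Of 8 compared genes in that list 3 were lower by 2-fold or more (2 with bounds) and 1 was higher. The basement membrane collagen Col4a1 was 2.03-fold lower. Its partner Col4a2 and the endocytic adaptor Dab2 were undetected in GFP high cells, with a gap of at least 2.46-fold for Col4a2 and a bound under 2-fold for Dab2. By contrast Cldn3, a tight junction protein, was 7.26-fold higher with 8.12 in GFP high cells and 5.26 in GFP low cells. Erythroid and blood genes summed to 2200 in GFP high cells, 2615 in GFP low cells and 3281 in GFP negative cells, with 3, 4 and 7 of 14 detected, and Gata1, Klf1 and Alas2, which define erythroid cells, were undetected in both GFP-positive gates. That list includes Tal1, which V2b cells also use. Endothelial genes summed to 565.5 in GFP high cells, 877.7 in GFP low cells and 1277 in GFP negative cells, with 1, 2 and 3 of 11 detected and Pecam1, Cdh5 and Kdr undetected in both GFP-positive gates. Glial genes summed to 1028 in GFP high cells, 659.5 in GFP low cells and 737.6 in GFP negative cells, with 3, 4 and 5 of 13 detected and Pdgfra and Cspg4 undetected in both. Of 4 compared glial genes 1 was higher by 2-fold or more and 1 was lower (0 with bounds), with a median log2 difference of -0.07. The higher gene was Mbp, myelin basic protein, at 2.48-fold with 0.16 on the log2 scale from its second probe. The lower gene was Nfib, at -1.27 on the log2 scale by its measured signals. Pluripotency genes summed to 865.5 in GFP high cells, 1116 in GFP low cells and 1112 in GFP negative cells, with 6, 6 and 8 of 18 detected and Nanog and Zfp42 undetected in both. That list includes Sox2, which neural progenitors also use and which was its 1 gene at least 2-fold lower. Of its 7 compared genes 4 were on the higher side, with a median log2 difference of 0.13. Muscle and neural crest sums lay between 153.1 and 175.3 in all populations. The part of such other cells in the differences between GFP high and GFP low cells was not tested.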

How the data were processed

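Total RNA of each sorted population was amplified to biotin-labelled cRNA and hybridised to 1 array, per the labels' protocols. The authors deposited an intensity per probe on a linear scale without normalization, with a detection p-value for each, per the file headers. GenomeStudio is named per the submitters' processing notes, without a version. A second table from the authors holds processed intensity with a floor of 10, and the sources used here do not state its background step or normalization.

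From the non-normalized values, all 3 arrays were background-corrected by normexp using the detection p-values (offset 16), then quantile normalized and expressed as log2 signal (limma 3.58.1, R 4.3.3). This offset understates folds of dim genes. Of 25697 probes, 23978 had 1 gene symbol in the platform annotation and 1719 had none listed; 23962 matched the current gene table. Each gene stands by the probe with the highest mean over the arrays. The steps were tested on simulated data. The number of arrays limits the precision, and no test was made.

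Genes named were all compared members of the motor neuron, motor column, cholinergic, effector and interneuron lists. Other lists gave up to 6 members at least 2-fold apart and the one nearest 0; over all genes, the 25 largest differences each way, the 10 largest bounds and the genes nearest the threshold were eligible. Further members, such as Dll1, Dll3, Mfng, Cdkn1a, Stmn2, Sox4, Myt1, Olig1, Olig2, Neurog2, Nes, Gad1, Ptch1, Top2a, Plk1 and Mcm3, were chosen after their values were seen. Members and lists were chosen with earlier results of these data known. Alternatives changed the background correction, offset, scaling, arrays normalized, detection filter, choice of probe and value table.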

Additional observations from a re-analysis of the deposited data

How the results depend on the processing

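With 1 array per population, the limits are those of 2 RNA samples, and dim probes carry the least certain folds. Without normexp the counts were 37 higher and 145 lower genes, with an offset of 50 they were 49 and 199, and with the authors' processed values they were 300 and 597, against 93 and 351. Median scaling gave 75 higher and 401 lower and set the median of all genes at -0.05. The median log2 difference of the V2 factors was -1.22 without normexp, -1.23 with an offset of 50, -2.05 over genes detected on both arrays, -1.33 with the mean of the probes and -2.17 in the authors' table, against -1.67. That of the cholinergic genes was 0.15 without the detection filter. That of the mitosis genes was -1.28 without normexp, -1.32 without the detection filter and -1.33 with the mean of the probes. For these moves the cause was not tested. Under each alternative the lower genes outnumbered the higher ones. The medians of the motor neuron factor, cholinergic, V2, replication and mitosis lists kept their sign. Among the other lists some medians changed sign. With undetected signals at their bounds, that of the erythroid and blood genes went from -0.34 to 0.06. That of the neural crest genes went from 0.05 to -0.0007. Among the genes eligible to be named, not all of which are described, 157 were at least 2-fold apart. All 157 kept their sign under each alternative that could compare them, and 127 could be compared over genes detected on both arrays. The alternatives that changed only the detection filter used the same differences, and bounds were not allowed to change sign. Those settings could therefore not alter the sign of a gene. Dropping normexp, changing its offset or normalizing the 2 arrays alone keeps the order of probes within each array. After quantile normalization the sign of a given probe rests on that order, so it was fixed there too. So were the signs of the motor neuron factor, cholinergic, V2, replication and mitosis medians, each over an odd number of genes. Median scaling, the mean of the probes and the authors' values could alter a sign. Of the 157 genes, 93 still reached 2-fold without normexp, 117 with the offset of 50 and 153 with median scaling. With the mean of the probes 131 did, and with the authors' values all 157 did. No paired analysis was possible because each population had 1 array and the labels carry no replicate numbers.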

Other observations

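For a small set of genes the signal in GFP low cells was at least 2-fold above, or at least 2-fold below, both other populations. Other genes, such as Tal1, Irx3 and Ddah1, lay outside the range of the other populations by smaller margins. Of the 8427 compared genes, 19 were at least 2-fold higher in GFP low cells than in each of the other populations by their measured signals. With undetected signals at their bounds 15 were. Beside Gata2, Gata3, Evx1, Msx1, Olig3, Slc17a6 and Nrn1 these 15 included neuropeptide, calcium-binding and surface genes. Ptn, the secreted growth factor pleiotrophin, gave 6.93 in GFP high cells, 8.62 in GFP low cells and 6.30 in GFP negative cells on the normalized log2 scale. Islr2, a leucine-rich repeat protein of developing axons, gave 9.77 in GFP high cells, 11.29 in GFP low cells and 9.45 in GFP negative cells. Cartpt, a neuropeptide precursor, gave 8.29, 9.56 and 7.48 in GFP high, low and negative cells, and its second probe gave a log2 difference of -1.26 between GFP high and GFP low cells. Calb2, the calcium-binding protein calretinin, gave 7.09, 8.23 and 5.97 in GFP high, low and negative cells, with -0.51 from its second probe. Rgs4, a regulator of G protein signalling, gave 8.60 in GFP high cells, 9.85 in GFP low cells and 8.68 in GFP negative cells. These genes were picked by their values on the same arrays, so their pattern is a description.

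The opposite pattern was found for 2 genes. Spon2, a secreted matrix protein, gave 7.79 in GFP high cells, 6.15 in GFP low cells and 7.96 in GFP negative cells. Tenm3, a teneurin of synaptic partner matching, gave 8.77 in GFP high cells, 7.23 in GFP low cells and 8.46 in GFP negative cells, and its second probe gave a log2 difference of 0.55 between GFP high and GFP low cells.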
